A study of Arabidopsis thaliana with 18 samples.

Results

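*CRK4* (AT3G45860), *CRK6* (AT4G23140), *WAK1* (AT1G21250) and *RLP37* (AT3G23110) encode receptors or receptor-like proteins of the *Arabidopsis* cell surface, and their transcripts were followed here through systemic acquired resistance (SAR). Each gene was measured by 1 probe set, a group of short probes on the ATH1 array. They were taken by their single symbol in the array annotation or in the gene names of the study, and they are 4 of the 14269 genes to which 1 or more probe sets could be assigned. They were chosen by their changes with SAR in these arrays, as genes that kept or lost induction in each of a pair of receptor mutants, so these changes and their differences between genotypes are described without a test. The levels in plants without SAR enter those changes too, so they are also a description.

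Col-0 wild-type (WT), *lecrk-VI.2-2* and *bak1-5* plants, about 4 weeks old and grown on soil, received 10 mM MgCl2 (−SAR) or a suspension of the bacterial pathogen *Psm* (*Pseudomonas syringae* pv. *maculicola*) in 10 mM MgCl2 at an OD600 of 0.002 (+SAR) in 3 lower leaves. After 48 hr, systemic leaves that had not been infiltrated were taken, 2 per plant by the labels and 1 per plant by the study's reporting summary. Leaves of 12 plants made up a sample, and 3 samples of each of the 6 groups were hybridized to 18 arrays. Both mutants are in the Col-0 background. *lecrk-VI.2-2* is a T-DNA insertion line of the lectin receptor kinase gene *LecRK-VI.2*, described in the study's text as a line with lowered transcript rather than none. *bak1-5* carries a missense allele of the co-receptor kinase BAK1. The labels call the samples biological replicates without saying whether they were grown on different days, so the spread behind each *q* value is that of these samples, which may be in part technical.

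Plants sense microbes and their own damaged cell walls with proteins at the plasma membrane. Cysteine-rich receptor-like kinases (CRKs) carry extracellular DUF26 domains, which hold conserved cysteines, and an intracellular kinase. They form a large family of which many members respond to salicylic acid and pathogens. Wall-associated kinases (WAKs) bind pectin in the wall and also sense pectin fragments, and *WAK1* is a salicylic acid-responsive gene. Receptor-like proteins (RLPs) have extracellular leucine-rich repeats and no kinase. Many of them rely on the adaptor kinase SOBIR1 and on BAK1 to signal, whereas no ligand is named here for RLP37.

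The values below are log2 signals after Robust Multichip Analysis, so a step of 1 is a doubling. Signals of different probe sets are not comparable in level. The standard error (SE) of a difference comes from one limma fit of all arrays, and its median over 22746 probe sets was 0.106. Most probe sets were dim, as 77.7% had no group mean of 6 or more. All 4 genes exceeded this mark in the WT +SAR plants, but *CRK6*, *RLP37* and *bak1-5* *WAK1* lay below 5 without SAR. In such a range signal above background is not shown, and a fold change may be understated. The probe sets of *CRK6* and *RLP37* belong to the class that matches transcripts of more than 1 gene, so part of their signal may come from relatives. The signal of *LecRK-VI.2* itself was also dim, below 6 in each group. Without SAR it was 5.52 to 5.59 in *lecrk-VI.2-2* and 5.44 to 5.55 in the WT, and this probe set did not separate the genotypes there. With SAR it was 5.45 to 5.68 in *lecrk-VI.2-2*, 5.48 to 5.7 in *bak1-5* and 5.78 to 5.91 in the WT. As *bak1-5* is not mutated in this gene, the gap to the WT does not show the lowered transcript of *lecrk-VI.2-2*. In *lecrk-VI.2-2*, MgCl2 replicate 2 and *Psm* replicate 3 were weak arrays, where 16.0% and 16.8% of signals reached 6, compared with 18.2% to 19.6% in the other 16 arrays. Of 13 cell type markers, 2 could be assigned, and the root gene *PYK10* stayed at 3.38 to 3.79 while the guard cell gene *GC1* was at 5.94 to 6.97. The mesophyll and phloem markers were not assigned here, and fewer cells of a type cannot be told apart from less RNA per cell.

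*CRK4* was higher with SAR in all 3 genotypes, and its level with SAR was lower in both mutants than in the WT. In the WT its signal was 6.46, 6.19 and 6.07 without SAR and 8.88, 9.06 and 9.11 with SAR. In *lecrk-VI.2-2* it was 6.45, 5.82 and 6.82 and then 7.75, 7.98 and 7.93. In *bak1-5* it was 6.43, 6.22 and 6.17 and then 8.46, 8.18 and 8.26. The −SAR arrays of the 3 genotypes overlapped, whereas the +SAR arrays formed separate ranges with the WT highest, *bak1-5* in the middle and *lecrk-VI.2-2* lowest. *CRK4* thus changed by 2.78 (SE 0.18, n = 3 against 3) in the WT, 6.87-fold, by 1.53 in *lecrk-VI.2-2* and by 2.03 in *bak1-5*. The SE of one gene is the same in the 3 genotypes.

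*CRK6* had the widest gap between the WT and the mutants among the 4 genes. In the WT its signal was 4.09, 3.86 and 4.31 without SAR and 7.60, 7.33 and 7.54 with SAR, which moved it from between the 26.1 and 42.4 percentiles of all probe sets to between the 93.3 and 94.8 percentiles of those arrays. In *lecrk-VI.2-2* it was 4.12, 4.60 and 3.74 and then 4.57, 5.18 and 5.14. This was the only case among the 4 genes in which the −SAR and +SAR arrays of a genotype overlapped. Replicate 2 without SAR, one of the weak arrays, was above replicate 1 with SAR. Replicates 1 and 3 without SAR lay below every +SAR array of this genotype. Overlap was looked at in these 4 genes alone, which were chosen by such changes, so separate ranges are a description throughout. The share of all probe sets with separate ranges was not computed. In *bak1-5* the signal was 4.16, 4.27 and 3.96 and then 6.13, 5.72 and 5.42, apart from both the WT and *lecrk-VI.2-2* with SAR. The change was 3.40 (SE 0.21) in the WT, or 10.6-fold, against 0.81 (1.75-fold) in *lecrk-VI.2-2* and 1.63 (3.09-fold) in *bak1-5*.

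*WAK1* had the largest change with SAR of the 4 genes in each genotype, and its estimate in *bak1-5* was not below that in the WT. In the WT its signal was 5.12, 4.86 and 5.69 without SAR and 8.96, 8.68 and 8.96 with SAR. In *bak1-5* it was 4.63, 4.30 and 4.47 and then 8.61, 8.54 and 8.46, below every WT array in both treatments. In *lecrk-VI.2-2* it was 6.55, 5.09 and 6.43 and then 8.09, 8.35 and 7.59. Without SAR, *lecrk-VI.2-2* replicates 1 and 3 were above every WT array and replicate 2, one of the weak arrays, lay among them. With SAR the *lecrk-VI.2-2* arrays were below those of the other genotypes. The change was 3.64 (SE 0.28) in the WT, or 12.5-fold, 1.99 (3.97-fold) in *lecrk-VI.2-2* and 4.07 (16.8-fold) in *bak1-5*.

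*RLP37* resembled *WAK1* in an estimated change in *bak1-5* that was not below that in the WT, and in a smaller one in *lecrk-VI.2-2*. In the WT its signal was 3.87, 4.37 and 4.54 without SAR and 6.81, 6.87 and 6.64 with SAR. In *lecrk-VI.2-2* it was 4.71, 4.82 and 4.73 and then 5.89, 6.13 and 5.54. In *bak1-5* it was 4.10, 4.11 and 3.96 and then 7.08, 6.64 and 7.002. All *lecrk-VI.2-2* arrays were above all others without SAR and below all others with SAR, and the WT and *bak1-5* overlapped in both treatments. The change was 2.51 (SE 0.16) in the WT, or 5.70-fold, 1.09 (2.14-fold) in *lecrk-VI.2-2* and 2.85 (7.23-fold) in *bak1-5*.

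**Figure D1:**
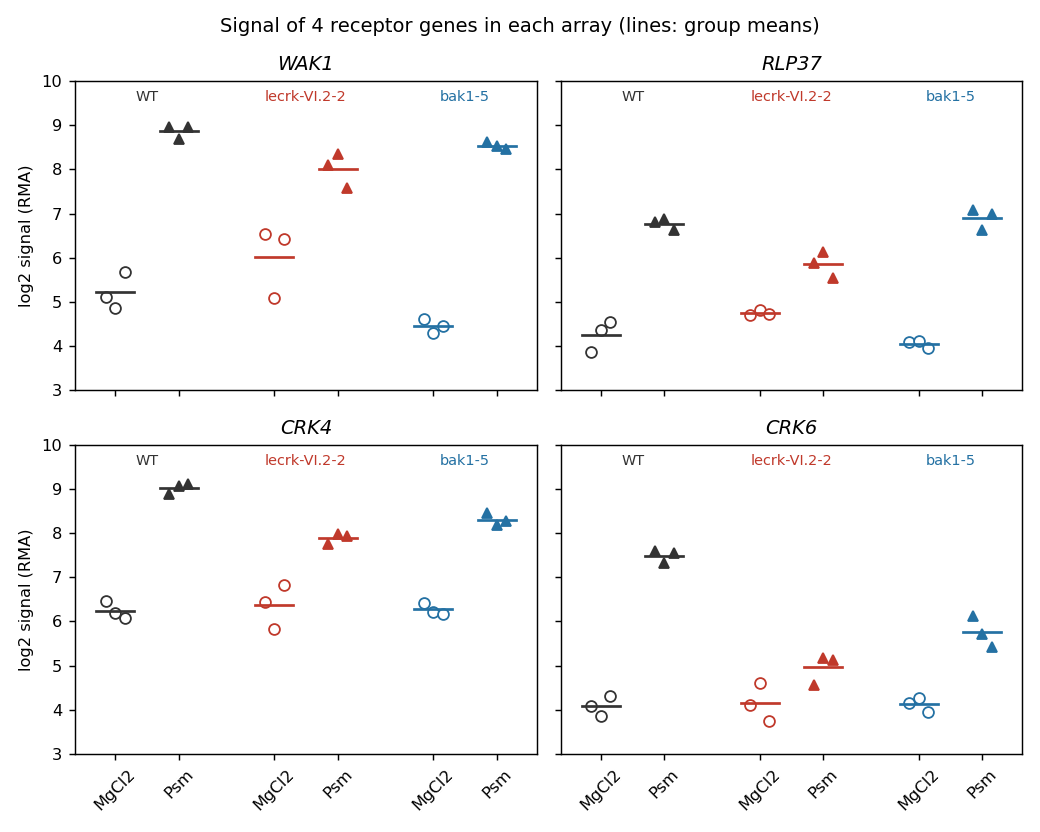
Log2 signal (vertical axis) of the 4 genes in each of the 18 arrays, with open circles for MgCl2, filled triangles for *Psm* and a line at each group mean of 3 arrays. For *CRK4* and *CRK6* the MgCl2 arrays of the genotypes overlap and the *Psm* arrays do not, whereas for *WAK1* and *RLP37* the MgCl2 arrays of *lecrk-VI.2-2* lie above those of *bak1-5*.

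The +SAR group means had the same order of genotypes for *CRK4*, *CRK6* and *WAK1* and a different one for *RLP37*. Without SAR, *WAK1* shared its order with *RLP37*, while the CRK genes had another order with overlapping groups. For *CRK4* the order fell from WT +SAR (9.02 ± 0.12, SD, n = 3) through *bak1-5* +SAR (8.30 ± 0.14) and *lecrk-VI.2-2* +SAR (7.89 ± 0.12) to the 3 −SAR groups, at 6.36 ± 0.51 in *lecrk-VI.2-2*, 6.27 ± 0.14 in *bak1-5* and 6.24 ± 0.20 in the WT, which overlapped each other. For *CRK6* it fell from WT +SAR (7.49 ± 0.14) through *bak1-5* +SAR (5.76 ± 0.35) to *lecrk-VI.2-2* +SAR (4.96 ± 0.34). Through the weak MgCl2 replicate 2, this group overlapped its own −SAR group (4.16 ± 0.43). The −SAR means of *CRK6* in *bak1-5* (4.13 ± 0.16) and the WT (4.09 ± 0.22) were next to it, and the 3 −SAR groups overlapped. *WAK1* was highest in WT +SAR (8.87 ± 0.16), followed by *bak1-5* +SAR (8.54 ± 0.08) and *lecrk-VI.2-2* +SAR (8.01 ± 0.39). Its −SAR groups came next, with *lecrk-VI.2-2* (6.02 ± 0.81) and the WT (5.22 ± 0.42) overlapping and *bak1-5* (4.46 ± 0.16) apart from both. *RLP37* was highest in *bak1-5* +SAR (6.91 ± 0.24), which overlapped WT +SAR (6.77 ± 0.12), and then in *lecrk-VI.2-2* +SAR (5.85 ± 0.30). Its −SAR means were 4.76 ± 0.06 in *lecrk-VI.2-2*, 4.26 ± 0.35 in the WT and 4.05 ± 0.09 in *bak1-5*, the WT and *bak1-5* overlapping.

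**Figure D2:**
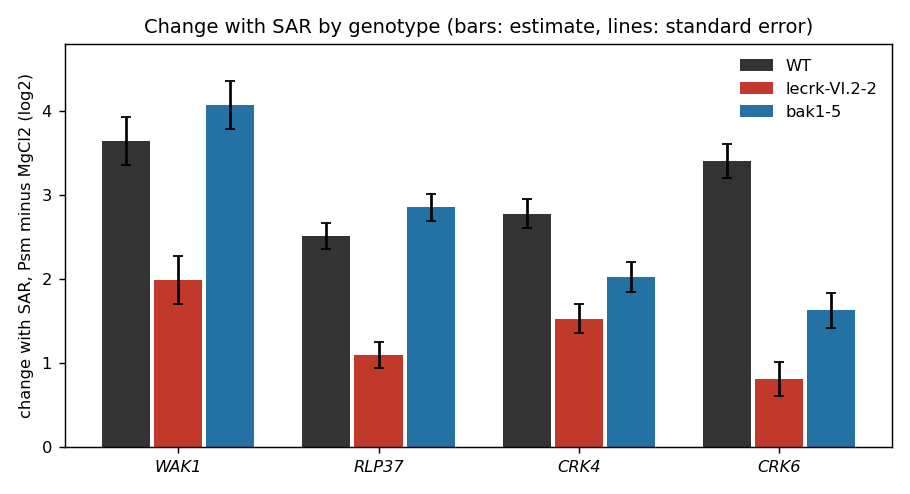
Change with SAR (*Psm* minus MgCl2, log2, vertical axis, from 0) of the 4 genes in the WT, *lecrk-VI.2-2* and *bak1-5*, with lines for the standard error of the fit to 18 arrays. *WAK1* and *RLP37* changed by 4.07 and 2.85 in *bak1-5*, and *CRK6* by 0.81 in *lecrk-VI.2-2*, the smallest of the 12 changes.

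These genes belonged to a large response in the WT. At a *q* value of 0.05 or less (Benjamini-Hochberg adjustment over all probe sets), 7.36% of probe sets were higher with SAR in the WT, 0.607% in *lecrk-VI.2-2* and 4.08% in *bak1-5*, and 5.54%, 0.484% and 3.01% were lower. With a fold change of 2 or more as well, 2.48% were higher in the WT, or 564 probe sets. Ordered from the largest increase, *WAK1* was at rank 29 of 22746 in the WT, *CRK6* at 43, *CRK4* at 99 and *RLP37* at 114. In *lecrk-VI.2-2*, where changes were smaller throughout, *WAK1* stood at rank 17, *CRK4* at 43, *RLP37* at 84 and *CRK6* at 167. In *bak1-5* *WAK1* stood at rank 6, *RLP37* at 29, *CRK4* at 68 and *CRK6* at 94.

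As a share of the WT change on the log2 scale, the 564 raised probe sets kept a median of 32.3% in *lecrk-VI.2-2* (quartiles 20.4% and 45.8%) and 49.6% in *bak1-5* (22.5% and 72.2%). *CRK4* kept 54.9% in *lecrk-VI.2-2* and 72.9% in *bak1-5*, above the upper quartile in both. *CRK6* kept 23.7% and 47.7%, below the median in both mutants. *WAK1* kept 54.5% in *lecrk-VI.2-2* and 111.7% in *bak1-5*, and *RLP37* kept 43.6% and 113.7%. Of the 564, 35 (6.21%) reached 100% or more in *bak1-5*, where *RLP37* and *WAK1* were at ranks 21 and 22, and 3 (0.532%) did so in *lecrk-VI.2-2*. The share uses the same WT arrays for both mutants, and it is given as a description.

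**Figure D3:**
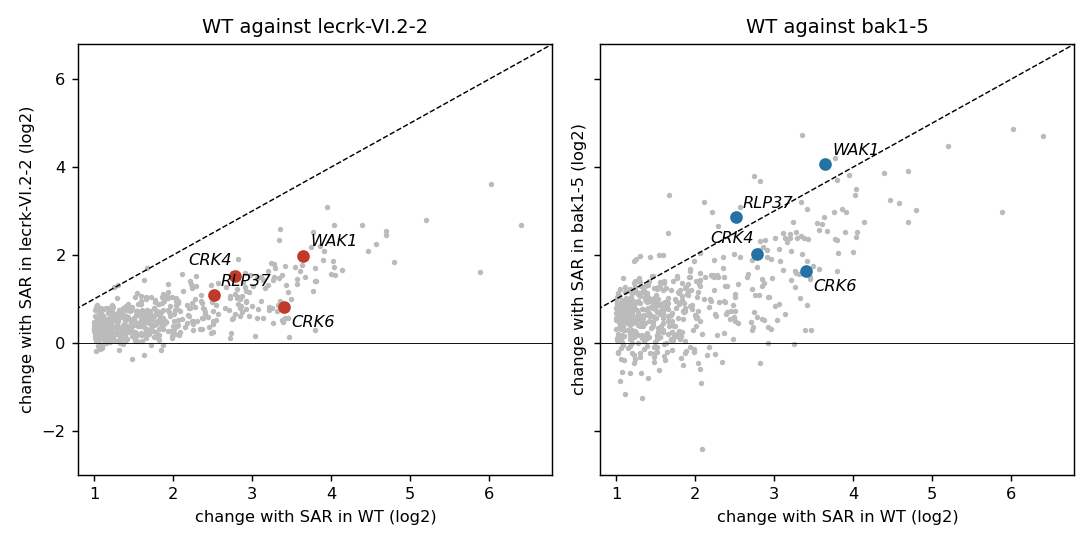
Change with SAR in *lecrk-VI.2-2* (left) and *bak1-5* (right), log2, against the change in the WT, for the 564 probe sets that rose in the WT, with the 4 genes marked. The dashed line is an equal change, and *WAK1* and *RLP37* lie above it in *bak1-5* at 111.7% and 113.7% of their WT change, while all 4 genes lie below it in *lecrk-VI.2-2*.

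The response in *lecrk-VI.2-2* minus that in the WT was -2.60 (SE 0.29) for *CRK6*, -1.66 (SE 0.40) for *WAK1*, -1.42 (SE 0.22) for *RLP37* and -1.25 (SE 0.25) for *CRK4*. Across all probe sets, 1.11% had a smaller and 0.259% a larger response at *q* 0.05 in this comparison. The response in *bak1-5* minus that in the WT was -1.78 for *CRK6* and -0.75 for *CRK4*, but 0.43 for *WAK1* and 0.34 for *RLP37*, with the same SEs. In this comparison 1.07% of all probe sets had a smaller and 0.308% a larger response. Between the mutants, the response in *bak1-5* exceeded that in *lecrk-VI.2-2* by 2.08 for *WAK1*, 1.76 for *RLP37*, 0.82 for *CRK6* and 0.50 for *CRK4*, where 0.0132% of all probe sets were called higher and 0.0176% lower. Both comparisons with the WT share its 6 arrays. Without the pair of weak *lecrk-VI.2-2* arrays, the response of *CRK4* in *lecrk-VI.2-2* minus that in the WT was -1.55, and its *bak1-5* minus *lecrk-VI.2-2* difference was 0.79 in place of 0.50. The part of these arrays in the other values was not tested beyond the ranges given with the alternatives.

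A difference of responses is the genotype difference with SAR minus that without SAR, so each can be split. For *CRK6* in *lecrk-VI.2-2* against the WT, the +SAR difference was -2.53 and the −SAR difference 0.07, which left 2.6% of the smaller response to the −SAR level. For *CRK4* these were -1.13 and 0.13, or 10.0%. The reduced induction of both CRK genes was thus almost all a lower level after *Psm*. For *WAK1* the +SAR difference was -0.85 and the −SAR difference 0.80, so that 48.4% of the smaller response came from a higher level without SAR. For *RLP37* they were -0.92 and 0.49, or 34.9%. Across all probe sets with SAR, 1.29% were higher and 4.73% lower in *lecrk-VI.2-2* than in the WT, 1.75% and 2.28% in *bak1-5* than in the WT, and 0.149% and 0.0484% in *bak1-5* than in *lecrk-VI.2-2*, and nothing is read from this about genes chosen by these changes. The split was sharper between the mutants. For *WAK1*, *bak1-5* differed from *lecrk-VI.2-2* by 0.52 with SAR and by -1.56 without, so 74.9% of the difference in response lay in the −SAR plants, and for *RLP37* the values were 1.06 and -0.70, or 39.9%. In *bak1-5* against the WT, *CRK6* differed by -1.73 with SAR and 0.04 without, *CRK4* by -0.72 and 0.03, *RLP37* by 0.13 and -0.21, and *WAK1* by -0.33 and -0.76. *WAK1* was therefore at a lower mean than in the WT in both treatments of *bak1-5*, with a change between them of 4.07. Its larger estimate there lay wholly in the lower −SAR level, as did 60.8% of the *RLP37* difference in response.

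**Figure D4:**
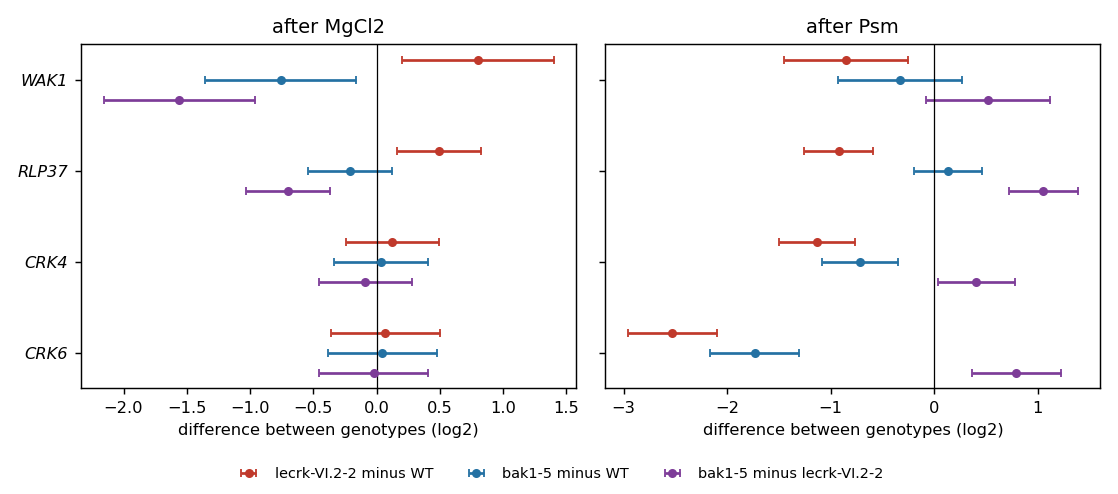
Differences between genotypes (log2, horizontal axis) after MgCl2 (left) and after *Psm* (right) for the 4 genes, with 95% confidence intervals from limma. After MgCl2 the intervals of *CRK4* and *CRK6* span 0, and the *WAK1* interval for *bak1-5* minus *lecrk-VI.2-2* runs from -2.16 to -0.96.

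The −SAR levels are 1 side of every change with SAR by which the genes were chosen, so their differences between genotypes are not an independent test. They are given as estimates with 95% confidence intervals, which are not adjusted for the number of probe sets. *WAK1* had the largest of these differences. In *bak1-5* it was below *lecrk-VI.2-2* by -1.56 (-2.16 to -0.96), 2.95-fold lower, and all 3 *bak1-5* arrays lay below all 3 of *lecrk-VI.2-2*. The difference ran from -2.03 to -1.30 when each array was left out in turn. *lecrk-VI.2-2* exceeded the WT by 0.80 (0.20 to 1.40), and by 1.27 without *lecrk-VI.2-2* MgCl2 replicate 2, one of the weak arrays. *bak1-5* was below the WT by -0.76, with no overlap of arrays.

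*RLP37* had the same order of genotypes without SAR as *WAK1*. Its mean was higher in *lecrk-VI.2-2* than in the WT by 0.49 (0.16 to 0.83), with a limma *q* of 0.92. The *bak1-5* minus *lecrk-VI.2-2* difference was -0.70 (-1.04 to -0.37), and the *bak1-5* minus WT difference was -0.21. For *CRK4* the differences of *lecrk-VI.2-2* and *bak1-5* from the WT and between the mutants were 0.13, 0.03 and -0.09, and for *CRK6* they were 0.07, 0.04 and -0.02. Each of these 6 changed sign in 1 or more of the fits without 1 array. The planned limma test gave *q* = 0.048 for the *WAK1* difference between the mutants and 0.21 or above for the other 11, and because of the choice of the genes no call is made from it. The *WAK1* value was also at the edge of the threshold, as its limma *q* ran from 3.9e-05 to 0.29 without 1 array and exceeded 0.05 in 15 of those 18 fits. Across all probe sets at *q* 0.05, limma called 0% of 22746 higher and 0% lower in *lecrk-VI.2-2* than in the WT without SAR, where 987 had an unadjusted *p* under 0.05. In *bak1-5* against the WT 0.0528% were higher and 0.0044% lower, and in *bak1-5* against *lecrk-VI.2-2* 0.0396% were higher and 0.0308% lower.

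The families of the 4 genes were described next, without the genes themselves. Lists by locus held 117 genes of the CRK, WAK and RLP families, of which 23 others could be assigned to a probe set. Of the 23, 18 carry a name only through a match to the 1998 rows of the study's list of changes used here. These rows reach down to WT changes of about 0.33 on the log2 scale, so the 18 lean to genes that rose in the WT. A gene lowered in the WT could not be named that way. That lean also favors a smaller response in a mutant than in the WT, so the family counts below are descriptions of the genes that could be named and not of the families. In the WT, 20 of 23 were higher and 0 lower with SAR by limma at *q* 0.05 (7.36% of all probe sets were higher). Among the 5 named by the array annotation, 3 were higher, namely *WAKL8*, *WAKL9* and *WAKL14*. In *lecrk-VI.2-2* 1 of 23 was higher (0.607% of all), and 9 had an unadjusted *p* under 0.05 (9.22% of all in either direction). In *bak1-5* 9 of 23 were higher (4.08% of all). A lower level with SAR was called by limma for 0 of 23 in any genotype, and 0 also had a negative change at an unadjusted *p* under 0.05. A smaller response than in the WT was called by limma for 8 of 23 in *lecrk-VI.2-2* (1.11% of all) and 6 of 23 in *bak1-5* (1.07% of all), all of them among the 18 named through the study's list. Of the 5 named by the array annotation it was called for 0 in either mutant, with 2 and 1 smaller at an unadjusted *p* under 0.05. Only 5 of the 23 had a group mean of 6 or more, so most family values are from dim probe sets.

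Among the CRK genes, 6 of 8 rose in the WT. *CRK7*, the next protein-coding gene after *CRK6* on chromosome 4, rose by 1.51 (limma *q* = 5.9e-06) in the WT, from a mean of 3.48 to 4.99. It changed by 0.08 in *lecrk-VI.2-2* and 0.16 in *bak1-5*, neither passing. *CRK7* thus resembled its neighbour *CRK6* in falling short in both mutants, at levels that stayed dim, and since the *CRK6* probe set may detect relatives, whether the pair is independent was not tested. *CRK45* rose by 1.09 in the WT and 0.36 in *bak1-5* (limma *q* = 0.033), and its change of 0.41 in *lecrk-VI.2-2* did not pass. *CRK19* (0.67) and *CRK37* (0.57) rose in the WT, and *CRK44* was lowest at -0.02. The median change of the 8 was 0.52 in the WT, 0.09 in *lecrk-VI.2-2* and 0.04 in *bak1-5*, while the median of all probe sets was between -0.04 and 0.00. Response differences passed for *CRK7* and *CRK45* in both mutants and for *CRK37* in *bak1-5*, all smaller than in the WT, and these 3 genes were named through their WT change, which favors that direction. *CRK5*, before *CRK6*, and *CRK8*, after *CRK7*, were not assigned.

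Among the WAK genes, which include the WAK-like kinases (WAKL), 5 of 6 rose in the WT. *WAK1* lies in a cluster on chromosome 1, where *WAK2* follows it and *WAK3* and *WAK5* precede it, and the first 2 of these were looked at as neighbours after the values were known. *WAK2*, which acts in pectin signaling, rose by 0.57 (limma *q* = 1.3e-04) in the WT and 0.49 (limma *q* = 0.0014) in *bak1-5*, and its change in *lecrk-VI.2-2* was 0.14 (limma *q* = 0.75). *WAK3* rose by 0.33 in the WT. *WAKL9* rose by 1.01 in the WT and 0.92 in *bak1-5*, and *WAKL8* by 0.78 and 1.15, while in *lecrk-VI.2-2* their changes of 0.39 and 0.43 did not pass. *WAKL14* rose by 0.84 in the WT and was at 0.25 in *bak1-5*, where it did not pass. *WAKL20* was lowest at 0.00. In *bak1-5* 3 of 6 were higher, and in *lecrk-VI.2-2* 0 of 6 by limma, with 2 at an unadjusted *p* under 0.05. The medians were 0.68, 0.20 and 0.37 in the WT, *lecrk-VI.2-2* and *bak1-5*. A response different from the WT was called by limma for 0 of 6 in either mutant, with 3 in *lecrk-VI.2-2* and 1 in *bak1-5* smaller at an unadjusted *p* under 0.05 (10.3% and 9.28% of all probe sets in either direction).

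The 9 other RLP genes that could be assigned were all named through the study's list of changes, so that their higher level with SAR in the WT (9 of 9) was largely set by how they were named. *RLP49* rose most, by 2.28 (limma *q* = 3.0e-10), and was the only one of the 23 called in *lecrk-VI.2-2* (0.82, limma *q* = 9.9e-04), with 1.55 in *bak1-5*. *RLP23*, the receptor of a peptide shared by many NLP proteins of microbes, rose by 2.01 in the WT from a mean of 3.99 to 5.998, and by 0.59 (limma *q* = 0.0029) in *bak1-5*. Its change of 0.35 in *lecrk-VI.2-2* did not pass. *RLP41* rose by 1.48 in the WT and 0.59 in *bak1-5*, *RLP19* by 1.22 and 0.86, and *RLP34* by 1.12 and 0.56, while *RLP46* was lowest in the WT at 0.34. The medians were 1.12, 0.23 and 0.56. Smaller responses than in the WT were called for 6 of 9 in *lecrk-VI.2-2* and 3 of 9 in *bak1-5*, a direction that naming through the WT change also favors. For *RLP37* the response in *bak1-5* minus that in the WT was 0.34 (95% confidence interval -0.13 to 0.81). *RLP38*, which follows *RLP37* on chromosome 3, was not assigned, and the probe sets of *RLP34* and *RLP49* also match more than 1 gene.

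**Figure D5:**
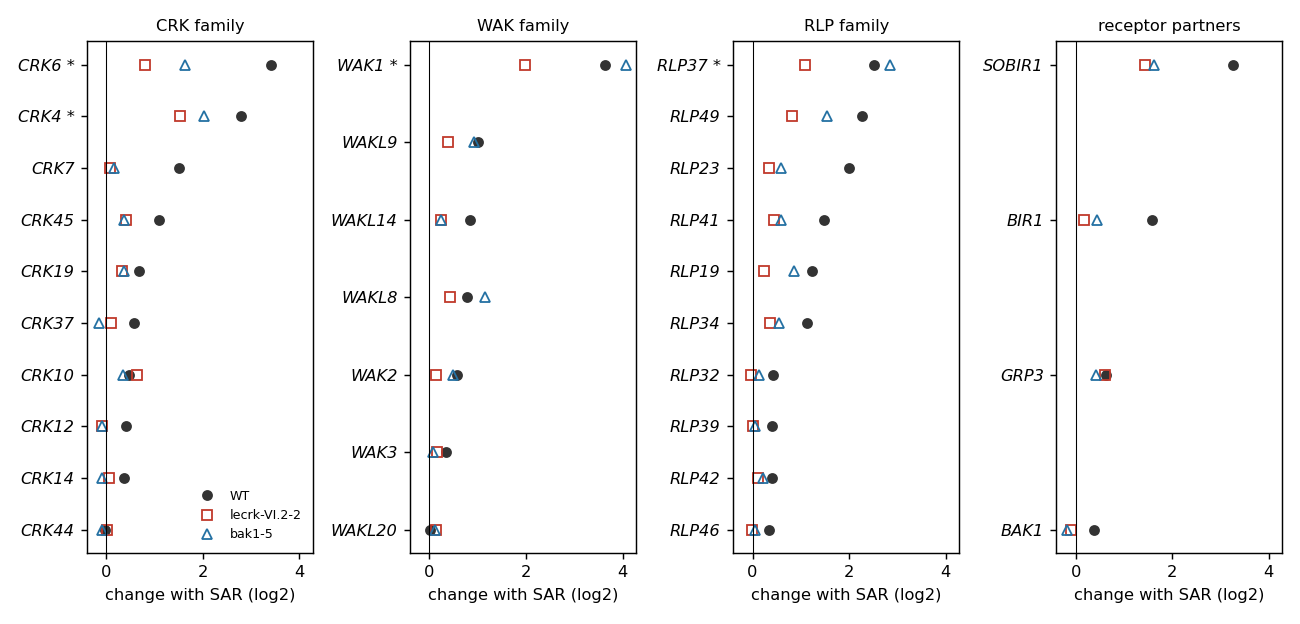
Change with SAR (log2, horizontal axis) of the assigned CRK, WAK and RLP genes and receptor partners in the WT (filled circles), *lecrk-VI.2-2* (open squares) and *bak1-5* (open triangles), with an asterisk on the 4 genes described here. *CRK7* changed by 1.51, 0.08 and 0.16, and *SOBIR1* by 3.27, 1.43 and 1.63 in the 3 genotypes.

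Of 7 known partners of these receptors 4 could be assigned. *SOBIR1*, an adaptor kinase of many RLPs, rose by 3.27 (limma *q* = 4.3e-07) in the WT, 1.43 (limma *q* = 0.020) in *lecrk-VI.2-2* and 1.63 (limma *q* = 0.0016) in *bak1-5*. *BIR1*, a negative regulator that binds BAK1, rose by 1.59 in the WT and 0.45 in *bak1-5*, and its 0.18 in *lecrk-VI.2-2* did not pass. *GRP3*, a glycine-rich wall protein that binds WAK1, rose by 0.63, 0.61 and 0.43 in the WT, *lecrk-VI.2-2* and *bak1-5* from a high level of 10.12 in the WT. *BAK1* itself changed by 0.39 (limma *q* = 0.087) in the WT, -0.10 in *lecrk-VI.2-2* and -0.18 in *bak1-5* and did not pass. Unlike *RLP37*, *SOBIR1* had a lower estimate in *bak1-5* than in the WT, a difference of -1.64 that did not pass (limma *q* = 0.061). Whether RLP37 works with SOBIR1 was not tested. Without SAR, 0 of the 23 family genes were called by limma in any comparison of genotypes, where 1, 1 and 3 had an unadjusted *p* under 0.05 in *lecrk-VI.2-2* against the WT, *bak1-5* against the WT and *bak1-5* against *lecrk-VI.2-2* (4.35%, 4.35% and 13.0%, beside 4.34%, 4.01% and 6.55% of all probe sets).

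Finally, genes with the most similar course were sought by the root mean square (RMS) difference of their 6 group means, each set to 0 at the WT −SAR mean, among the 14269 genes. The nearest to *CRK6* was *GRX480*, a glutaredoxin gene of salicylic acid signaling, at an RMS of 0.10 log2 units, with changes of 3.49, 1.00 and 1.76 in the WT, *lecrk-VI.2-2* and *bak1-5*. AT3G60420 (0.13) and *ATCSLA15* (0.16), a cellulose synthase-like gene, came next. The nearest to *CRK4* were *RING1* (0.17), which encodes a ubiquitin ligase, *TIFY7* (0.17), a jasmonate-signaling repressor gene, and the transcription factor gene *NAC036* (0.18). *CRK6* was at 0.44 from *CRK4*, and 42 genes were closer to *CRK4*.
The nearest to *WAK1* was *LURP1*, a gene required for full resistance to downy mildew, at 0.21, with changes of 3.77, 2.52 and 4.198. It was followed by the transcription factor gene *WRKY70* (0.33), with 3.34, 2.35 and 3.21, and by *ANK* (AT5G54610, 0.36), with 2.82, 1.91 and 3.68. *LURP1* and *ANK* thus also had larger estimates in *bak1-5* than in the WT. *RLP37* had no gene closer than 0.31, where *RD20*, a drought-induced caleosin gene, stood (2.86, 0.83 and 2.18), and *CRK4* (0.32) and AT1G35710 (0.33) followed. *WAK1* was at 0.77 from *RLP37*, 0.88 from *CRK4* and 1.13 from *CRK6*. These distances rest on 6 means of 3 arrays each and are given without a test.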

How the data were processed

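The authors deposited 1 log2 intensity for each probe set and array, obtained from scanned Affymetrix ATH1 arrays by Robust Multichip Analysis (RMA) with the affy package, which corrects the background, equalizes the distributions of the arrays and summarizes the probes of a set. These steps make changes relative to the bulk of the probe sets and compress dim ones. Of 22810 probe sets, 64 controls were dropped and 22746 entered the tests.

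One mean per group was fitted to 18 arrays using lmFit and eBayes (limma 3.58.1, R 4.3.3, 12 residual degrees of freedom, 18.03 with the prior). *q* is the Benjamini-Hochberg adjusted *p* over all probe sets of a comparison, with calls at 0.05 or less. Precision is limited by the number of arrays, which carry no depth. The steps were tested on simulated data.

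Probe sets were assigned to 1 gene by the platform annotation (13499) or by matching their changes in 3 genotypes, within a set tolerance, to the study's list of changes (990), from which names alone were kept; all 4 genes were named that way. Probe sets of several genes (521), conflicting names (38) or none (7698) were not named. Gene order came from RefSeq, and no sequence was used here. With several probe sets for a gene, the brightest was used.

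The genes and lists were chosen with earlier results of these data known. Named beside the 4 genes are, for each family, the 3 largest WT changes and the lowest, up to 5 genes with a passed difference between genotypes, all partners and 3 similar genes each. Alternatives were array weights, cyclic loess, a trended and robust prior, median-centred arrays, the replicate as a block, a filter on dim probe sets (6), fits of the compared arrays alone, *q* of 0.01, a fold of 2, leaving out each array, and leaving out the pair of weak *lecrk-VI.2-2* arrays. Figures were drawn with matplotlib 3.10.9 in Python 3.11.15.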

Additional observations from a re-analysis of the deposited data

Results flagged for a closer look

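Relatives and partners of the 4 genes whose change with SAR differed between genotypes, by limma's test of the difference over all probe sets, were marked. In *lecrk-VI.2-2* against the WT, the difference was -1.43 for *CRK7* (*q* = 0.004), -0.68 for *CRK45* (*q* = 0.02), -1.66 for *RLP23* (*q* = 1.8e-05) and -1.46 for *RLP49* (*q* = 7.8e-05). It was -1.04 for *RLP41* (*q* = 0.013), -0.99 for *RLP19* (*q* = 0.0022) and -0.77 for *RLP34* (*q* = 0.047). *RLP32* also passed, at -0.46 (*q* = 0.043), but came after the 5 genes marked by size in its family. Of the partners, *SOBIR1* was at -1.84 (*q* = 0.032) and *BIR1* at -1.41 (*q* = 7.1e-05).

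In *bak1-5* against the WT, the difference was -1.35 for *CRK7* (*q* = 0.0058), -0.73 for *CRK37* (*q* = 0.0058) and -0.73 for *CRK45* (*q* = 0.011). It was -1.42 for *RLP23* (*q* = 0.00014), -0.89 for *RLP41* (*q* = 0.032), -0.73 for *RLP49* (*q* = 0.033) and -1.14 for *BIR1* (*q* = 0.00073). All of these were smaller responses in the mutant, and all of these genes were named through the rows of the study's list used here. These rows reach down to a WT change of about 0.33, which favors that direction. Of the 5 family genes named by the array annotation, 0 were called by limma in either mutant, with 2 in *lecrk-VI.2-2* and 1 in *bak1-5* smaller at an unadjusted *p* under 0.05. Groups of 3 arrays are too small for a test of single outlying arrays.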

How the results depend on the processing

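Of 1188 values under alternatives, 1122 kept their direction and their side of the threshold or moved little, 66 did not and 13 changed sign. Changes and response differences of the 4 genes kept their sign in 624 of 624 values, but many of these could not move. An estimate stays as it is under the trended prior, the filter on dim probe sets, the replicate block and the compared arrays alone. It also stays when an array outside its comparison is left out, so these counts do not measure robustness. The −SAR difference of *WAK1* between *bak1-5* and *lecrk-VI.2-2*, -1.56 in the main fit, was -1.56 with a limma *q* of 0.14 under an intensity trend and a robust prior and of 0.64 with only the compared arrays. It ran from -2.03 to -1.30 without 1 array, and *q* was 0.05 or less only without *lecrk-VI.2-2* MgCl2 replicate 2, *lecrk-VI.2-2* *Psm* replicate 3 or WT MgCl2 replicate 3. The *WAK1* difference of *lecrk-VI.2-2* and the WT without SAR was 0.80 in the main fit, where it did not pass. It was 1.28 with array weights (limma *q* = 0.0049) and 1.27 without the weak pair (limma *q* = 0.012), and ran from 0.54 to 1.27 without 1 array. The −SAR levels are part of the changes that chose the genes, so no call is made from these *WAK1* *q* values. The *CRK6* differences without SAR changed sign: *bak1-5* minus *lecrk-VI.2-2* was 0.058 with array weights and 0.20 without the weak pair, and *lecrk-VI.2-2* minus WT was -0.16 without the pair. Without 1 array, the *CRK4* differences without SAR ran from -0.10 to 0.40 (*lecrk-VI.2-2* minus WT), -0.051 to 0.14 (*bak1-5* minus WT) and -0.36 to 0.14 (between the mutants), and those of *CRK6* from -0.16 to 0.27, -0.068 to 0.16 and -0.23 to 0.20. Without the weak pair, the *CRK4* change in *lecrk-VI.2-2* was 1.23, its response difference from the WT -1.55 and that between the mutants 0.79. Without 1 array the *CRK4* values ran from 1.25 to 1.76, -1.53 to -1.02 and 0.27 to 0.77, and those of *WAK1* from 1.52 to 2.25, -2.12 to -1.39 and 1.82 to 2.55, the extremes each falling without a *lecrk-VI.2-2* MgCl2 array. Of the 23 family genes, 20 rose in the WT, 1 in *lecrk-VI.2-2* and 9 in *bak1-5*, and 8 and 6 had a smaller response in *lecrk-VI.2-2* and *bak1-5*, none of them among the 5 named by the array annotation. Array weights gave 3 risers in *lecrk-VI.2-2*, 14 different responses there and 2 between the mutants (0 in the main fit). Without dim probe sets these 5 counts were 4, 0, 3, 1 and 0, as only 5 of the 23 were left, and with a fold of 2 they were 8, 0, 2, 4 and 2. Cyclic loess, median centring and the replicate block gave 2 risers in *lecrk-VI.2-2*, the compared arrays alone gave 5 different responses there, and *q* 0.01 gave 4 and 3. Without 1 array the *lecrk-VI.2-2* counts ran from 1 to 2 and from 5 to 8. Apart from shifts that a stricter threshold or fewer probe sets make by construction, the cause was not tested. Replicate numbers did not pair the arrays. After the group means were subtracted, same-numbered arrays of different groups had a median correlation of -0.02 (-0.437 to 0.322, 8 of 45 over 0.1). The replicate block moved the count of risers in *lecrk-VI.2-2* from 1 to 2 and that of smaller responses there from 8 to 6, and no other family count. Spread was wider in *lecrk-VI.2-2* (median SD 0.140 without and 0.126 with SAR) than in the WT (0.087 and 0.086), and was 0.093 and 0.123 in *bak1-5*, while the fit uses 1 spread per probe set for all groups.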
